A study of Macaca mulatta with 6 samples.

Results

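Interferon-stimulated genes are the antiviral genes that cells switch on when type I interferon binds its receptor. The receptor subunits IFNAR1 and IFNAR2 work with the kinases JAK1 and TYK2, which phosphorylate factors such as STAT2. STAT2 then joins IRF9 in a complex that binds the promoters of the target genes. Pluripotent stem cells are known for a weak response to interferon and for expressing some of its target genes without it.

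Of the 30246 gene rows in each deposited file, 9 were followed here: 6-16 (the files' symbol for IFI6), ISG15, IFIT1, IFIT2, IFIT3, MX1, OAS1, IRF9 and BST2. They were taken by symbol, and each symbol had 1 row. The members were selected on their FPKM in naive and primed libraries, so their difference between these states is a description and carries no test. Expression was measured by RNA sequencing in 6 libraries of rhesus monkey (Macaca mulatta) induced pluripotent stem cells (iPSC), and 5 of the 9 members reached the level at which rows were tested (1 FPKM or more in 2 libraries). FPKM, the authors' unit, scales the fragments of a gene by its transcript length and by the fragments mapped in the library.

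There were 2 female naive, 2 male naive and 2 male primed libraries, called FN1, FN2, N1, N2, P1 and P2. The medium of naive lines held 15% serum replacement, bFGF (4 ng/ml) and LIF (10 ng/ml) together with 4 kinase inhibitors: 3 µM of the GSK3 inhibitor CHIR99021, 0.5 µM of the MEK inhibitor PD0325901, 10 µM of SB203580 against p38 and 10 µM of SP600125 against JNK. That of primed lines held 20% serum replacement and bFGF without LIF or inhibitors. No genetic change, and no interferon or other treatment beyond the medium, is given in the labels, and the series compares the naive with the primed state. Feeder cells had been removed before RNA extraction, and the labels do not tie lines to donors, so the spread is that between lines. No female primed line was analysed here.

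Depth, as effective fragments read from the width of the deposited bounds, was 8294782 and 10013491 for FN1 and FN2, 1754857 and 1478692 for N1 and N2, and 9970137 and 7607125 for P1 and P2, so male naive values carry the widest counting error. Naive libraries held more POU5F1, the OCT4 factor, at 536 to 1160 FPKM against 135 and 109 FPKM in primed libraries. The pluripotency factor NANOG was at 73.8 and 95.9 FPKM in female naive and 28.7 and 30.7 FPKM in male naive libraries. It was at 0.933 and 2.09 FPKM in primed libraries, on 16 and 28 effective fragments. SOX2, common to both states, was at 85.3 to 122 FPKM in naive and 141 and 124 FPKM in primed libraries. Of 11 blood and immune cell markers 10 had a row, and none was above 2.16 FPKM in any library. Their summed level was 3.66 and 3.21 FPKM in female naive, 0.48 and 5.12 FPKM in male naive and 1.2 and 2.61 FPKM in primed libraries, and TYROBP was listed at 0 in all 6. The 17 fibroblast and feeder markers with a row (of 18 listed) summed to 1211 and 1909 FPKM in female naive and 1908 and 1663 FPKM in male naive libraries, against 611 and 1281 FPKM in P1 and P2. TAGLN made up most of each sum. It was at 938 and 1534 FPKM in female naive, 1669 and 1450 FPKM in male naive and 512 and 873 FPKM in primed libraries. Single markers differed in direction: COL3A1 was highest in P2 (28.6 FPKM) and THY1 in FN2 (167 FPKM). None of the 14 tested fibroblast markers was called between naive and primed libraries, where 11.3% of all tested rows were called. The 9 neural markers with a row summed to 204 and 303 FPKM in female naive and 378 and 347 FPKM in male naive libraries. In P1 and P2 they summed to 695 and 911 FPKM, of which CRABP1 alone was 408 and 634 FPKM. NES, which was not tested, made up most of each naive sum, at 166 and 263 FPKM in female naive and 244 and 229 FPKM in male naive libraries. Its FN2 value rested on 0.3 effective fragments. The mean of NES was higher in naive (225 FPKM) than in primed libraries (168 FPKM), though the libraries overlapped. Of the 8 tested neural markers 4 were called lower and 0 higher in naive libraries, beside 4.59% and 6.72% of all tested rows. Of the 8 tested pluripotent cell markers 5 were called higher and 0 lower (POU5F1, NANOG, DPPA4, TDGF1 and PRDM14), while SOX2, SALL4 and LIN28B were not called. In P1 and P2 DPPA4 was at 21.8 and 19.6 FPKM, TDGF1 at 0 and 0.818 FPKM and PRDM14 at 0.52 and 1.13 FPKM.

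MX1 and 6-16 were the members whose naive and primed libraries did not overlap, and they lay in opposite directions. MX1 (ENSMMUG00000015329, chromosome 3, 5187736 to 5260178), a dynamin-like GTPase that blocks viral replication, was at 20.8 and 12 FPKM in female naive, 15.4 and 15.7 FPKM in male naive and 6.26 and 8.28 FPKM in primed libraries. All 4 naive libraries were above both primed libraries, and the lower bound of each naive library (10.7 FPKM or more) was above the upper bounds of P1 and P2 (7.20 and 9.37 FPKM). Such bounds cover counting error and not the spread between lines, so this separation is a description. MX1 averaged 16 ± 3.60 FPKM in naive libraries (SD, n = 4) and 7.27 ± 1.43 FPKM in primed libraries (SD, n = 2), a ratio of 2.2. Its difference was 1.03 on the log2(FPKM + 1) scale, with female and male naive lines 1.04 and 1.01 above the primed lines they share as a baseline. It rested on 78.6 or more effective fragments in every library.

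6-16 (ENSMMUG00000011454, chromosome 1, 30352083 to 30358166) encodes a small mitochondrial protein that opposes apoptosis. It was at 2.7 and 2.51 FPKM in female naive, 1.1 and 1.3 FPKM in male naive and 6.88 and 17.9 FPKM in primed libraries. All 4 naive libraries were below both primed libraries, and P2 was well above P1. The mean was 1.90 ± 0.82 FPKM in naive libraries (SD, n = 4) and 12.4 ± 7.81 FPKM in primed libraries (SD, n = 2), so the naive mean was 0.154 times the primed mean, a log2 difference of -2.12. Only 2 effective fragments lay behind each male naive value. The upper bounds there were 2.64 and 3.15 FPKM, and the lower bounds in P1 and P2 were 5.24 and 14.9 FPKM. These bounds cover counting error and not the spread between lines, so their separation is no test of the difference. The difference was -2.75 without P1 and -1.48 without P2.

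ISG15 (ENSMMUG00000001819, chromosome 1, 4090854 to 4091954) is a ubiquitin-like protein that is joined to viral and cellular proteins. It was at 12 and 6.21 FPKM in female naive, 9.22 and 8 FPKM in male naive and 1.18 and 6.79 FPKM in primed libraries. P1 stood apart below the other 5 libraries, while P2 lay above FN2. Naive libraries averaged 8.87 ± 2.45 FPKM (SD, n = 4) and primed libraries 3.99 ± 3.97 FPKM (SD, n = 2), a log2 difference of 1.23. That difference was 0.31 without P1 and 2.14 without P2, so its size depended on which primed line was counted. P1 rested on 8 effective fragments, and it also held fewer fibroblast marker transcripts than P2. The part of these markers in the level of ISG15 was not tested, and in bulk RNA fewer cells of a type and less RNA per cell cannot be told apart.

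The row that the files name IRF9 (ENSMMUG00000012474, chromosome 7, 87041136 to 87061300) had the smallest difference between states among the 5 tested members. The table of gene names gives this identifier as RNF31, a ubiquitin ligase subunit whose gene is the immediate neighbour of IRF9 in RefSeq (T2T-MMU8v2.0). No other row of the files is named RNF31, so its value may hold transcripts of both genes. It was at 20.2 and 23.4 FPKM in female naive, 19.9 and 21.6 FPKM in male naive and 32.2 and 22.1 FPKM in primed libraries. P1 was the highest and P2 lay within the naive range, and the log2 difference was -0.32, or -0.06 without P1 and -0.58 without P2.

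**Figure D1:**
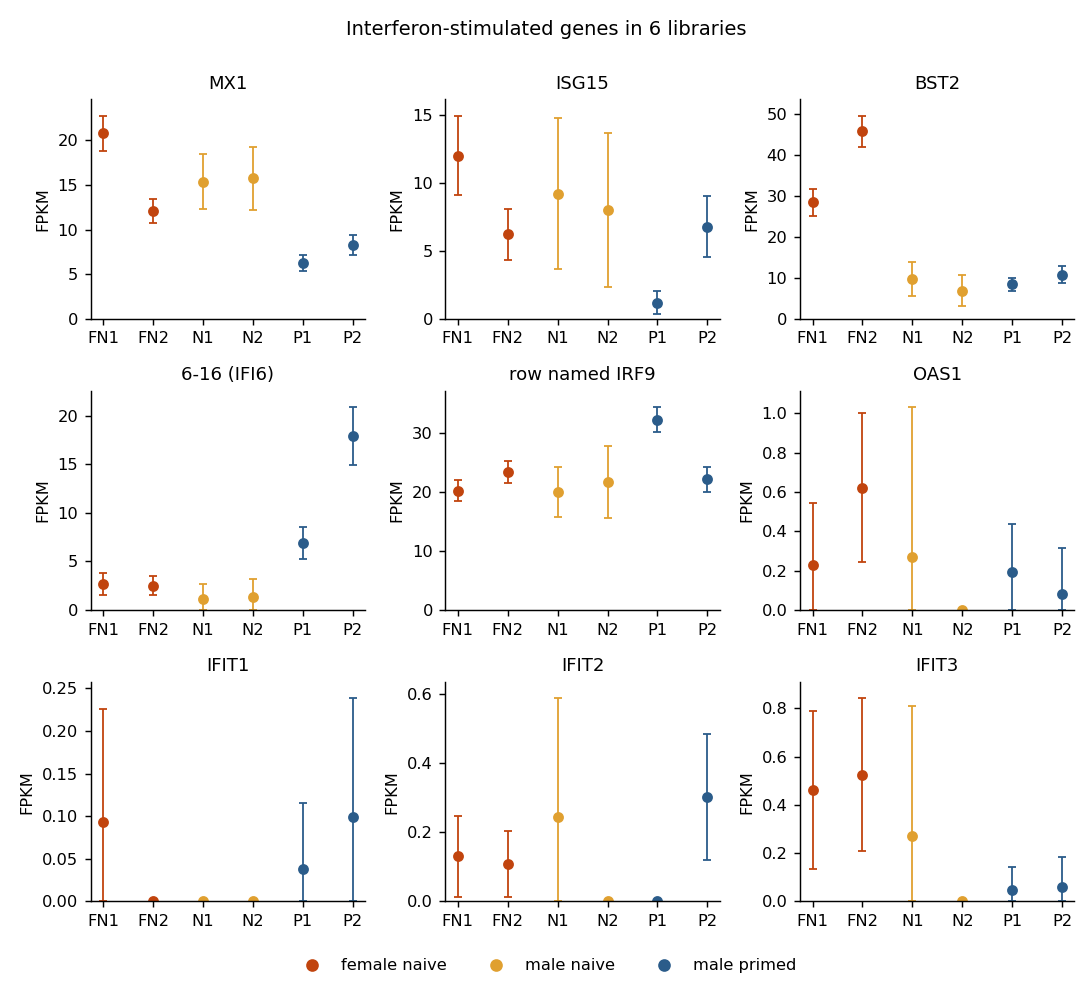
FPKM of the 9 members in each library on linear axes that start at 0, with points for the deposited values. Bars run from the authors' upper bound (2 SD above) to a lower bound mirrored from it and cut at 0. FN1 and FN2 are female naive, N1 and N2 male naive and P1 and P2 male primed libraries. MX1 was above, and 6-16 below, both primed libraries in all 4 naive libraries, BST2 stood out at 28.4 and 45.9 FPKM in female naive libraries, and OAS1 and the 3 IFIT genes stayed under 1 FPKM.

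BST2 (ENSMMUG00000005829, chromosome 19, 16965606 to 16968176), or tetherin, holds budding virus particles at the cell surface. It was highest in female naive lines, at 28.4 and 45.9 FPKM in female naive, 9.79 and 6.88 FPKM in male naive and 8.43 and 10.8 FPKM in primed libraries. Both female naive libraries were above the other 4, and the male naive libraries overlapped the primed ones. Female naive lines lay 1.82 above, and male naive lines 0.19 below (log2 difference -0.19), the primed lines they share as a baseline.

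The comparison of female with male naive lines, both in 1 medium, was not the one that the members' rule names. The same naive libraries entered both, so its adjusted p-values for members are not independent of how the members were chosen. BST2 averaged 37.2 ± 12.3 FPKM in female and 8.34 ± 2.06 FPKM in male naive lines (SD, n = 2 each), higher by 2.01 on the log2(FPKM + 1) scale (SE 0.29, limma with Benjamini-Hochberg adjustment over 13685 rows, adjusted p = 0.024). Of the 5 tested members 1, BST2, was called at an adjusted p under 0.05, where 3.31% of all tested rows were called, 0.76% higher and 2.55% lower in female lines. The call was lost without FN1 (2.35, adjusted p = 0.0622), FN2 (1.68, adjusted p = 0.146), N1 (2.24, adjusted p = 0.0876) or N2 (1.78, adjusted p = 0.152), each of which leaves a lone line on 1 side. With no filter on low values the limma adjusted p was 0.0564, and with a replicate block (a term for the replicate number) it was 0.0565. BST2 rested on 298 and 583 effective fragments in female and 22 and 13 in male naive libraries.

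The other 4 tested members were not called in this comparison. MX1 averaged 16.4 ± 6.17 FPKM in female and 15.6 ± 0.27 FPKM in male naive lines, a log2 difference of 0.03 (SE 0.28). ISG15 averaged 9.12 ± 4.12 FPKM in female and 8.61 ± 0.86 FPKM in male naive lines, a difference of 0.015 (SE 0.605), and the IRF9 row 21.8 ± 2.29 FPKM in female and 20.8 ± 1.2 FPKM in male naive lines, a difference of 0.06 (SE 0.21). For these 3 members the female and male naive libraries overlapped. The mean of 6-16 was 2.61 ± 0.13 FPKM in female and 1.2 ± 0.15 FPKM in male naive lines, a difference of 0.715 (SE 0.42, limma adjusted p = 0.384) that rested on 4 fragments in all on the male side. Over all tested rows the median female minus male difference was -0.104, and it was 0.008 with upper-quartile scaling. Of the 9 members 6-16, IFIT3 and BST2 had female and male naive libraries that did not overlap, all 3 higher in female lines, beside 57% of tested rows (19.4% higher and 37.6% lower in female lines).

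The IFIT genes and OAS1 were at or near the limit of detection in both states. IFIT1 (ENSMMUG00000017533, chromosome 9, 88952468 to 88963796), which binds viral RNA that lacks the host cap, rested on 5 effective fragments over all 6 libraries. It was listed at 0.0935 FPKM in FN1 and at 0 in FN2, N1 and N2, against 0.0386 and 0.0987 FPKM in primed libraries. IFIT2 (ENSMMUG00000004185, chromosome 9, 88880785 to 88887837), a partner of IFIT1 in a complex, was at 0.131 and 0.108 FPKM in female naive libraries, 0.244 and 0 FPKM in male naive libraries and 0 and 0.303 FPKM in primed libraries. Neither gene set the naive apart from the primed libraries.

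IFIT3 (ENSMMUG00000005001, chromosome 9, 88910964 to 88912432), which stabilises IFIT1, was at 0.462 and 0.524 FPKM in female naive, 0.269 and 0 FPKM in male naive and 0.0477 and 0.0609 FPKM in primed libraries. Its values stood on 8 and 11 effective fragments in female naive libraries, 1 and 0 in male naive libraries and 1 in each primed library. The rows of IFIT2 and IFIT3 lie inside the span of the lipase gene LIPA, and no source used here says whether counting used strand, so LIPA reads could count toward them. OAS1 (ENSMMUG00000012782, chromosome 11, 113846671 to 113868589), which makes the messenger that activates RNase L, was at 0.23 and 0.621 FPKM in female naive, 0.27 and 0 FPKM in male naive and 0.191 and 0.0808 FPKM in primed libraries. None of these 4 members was tested.

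Taking all 9 members, tested or not, 5 log2 differences between naive and primed libraries were above 0 and 4 below, with a median of 0.15 beside 0.035 for all tested rows. That median is the value of OAS1, which was not tested and rested on 16.2 effective fragments over all libraries. The libraries of the groups did not overlap for 2 of the 9 members, and for 34.8% of tested rows (18.9% higher and 15.9% lower in naive libraries). By mean FPKM over the libraries, the percentile among tested rows was 69.6 for the IRF9 row, 63.3 for BST2, 53.4 for MX1, 37 for ISG15 and 30.2 for 6-16. ISG15 and 6-16, neighbours in that order, lay on opposite sides of 0 in the naive minus primed difference.

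Genes that act upstream of the members were examined from lists written with earlier results of these data known. Of 25 symbols for interferons, 10 had a row, and 8 of these, IFNB1 and IFNG among them, were listed at 0 in all 6 libraries. The highest value of any interferon row was 0.052 FPKM. All 10 rows for interferon receptors and their kinases and STAT factors were tested, with a median naive minus primed difference of 0.06. Of all 13685 tested rows, 11.3% were called, 920 higher (6.72%) and 628 lower (4.59%) in naive libraries. With upper-quartile scaling the split was 693 higher and 878 lower.

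TYK2, the kinase bound to IFNAR1, was at 1.56 and 2.13 FPKM in female naive, 2.07 and 1.6 FPKM in male naive and 4.79 and 5.91 FPKM in primed libraries. Every naive library was below both primed libraries, and the log2 difference was -1.16 (SE 0.22, limma adjusted p = 0.0291). The call was lost when any 1 library was left out, with no filter on low values, without both male naive libraries and with sex ignored, with differences of -1.50 to -1.04 and limma adjusted p up to 0.0936 over all alternatives.

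The receptor subunits and JAK1 were not called between states, and their libraries overlapped. IFNAR1 averaged 6.34 ± 1.56 FPKM in naive and 5.91 ± 0.91 FPKM in primed libraries, with a difference of 0.07 (SE 0.26). IFNAR2 averaged 10.1 ± 3.46 FPKM in naive and 8.8 ± 2.96 FPKM in primed libraries, with a difference of 0.16 (SE 0.32). JAK1 averaged 13.0 ± 1.61 FPKM in naive and 12.5 ± 1.75 FPKM in primed libraries, with a difference of 0.06 (SE 0.16). These SDs are over n = 4 naive and n = 2 primed libraries. STAT2 was at 3.97 and 3.84 FPKM in female naive, 4.97 and 5.62 FPKM in male naive and 5.76 and 6.63 FPKM in primed libraries. Its naive libraries all lay below the primed ones, but it was not called (-0.37, SE 0.18, limma adjusted p = 0.219).

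**Figure D2:**
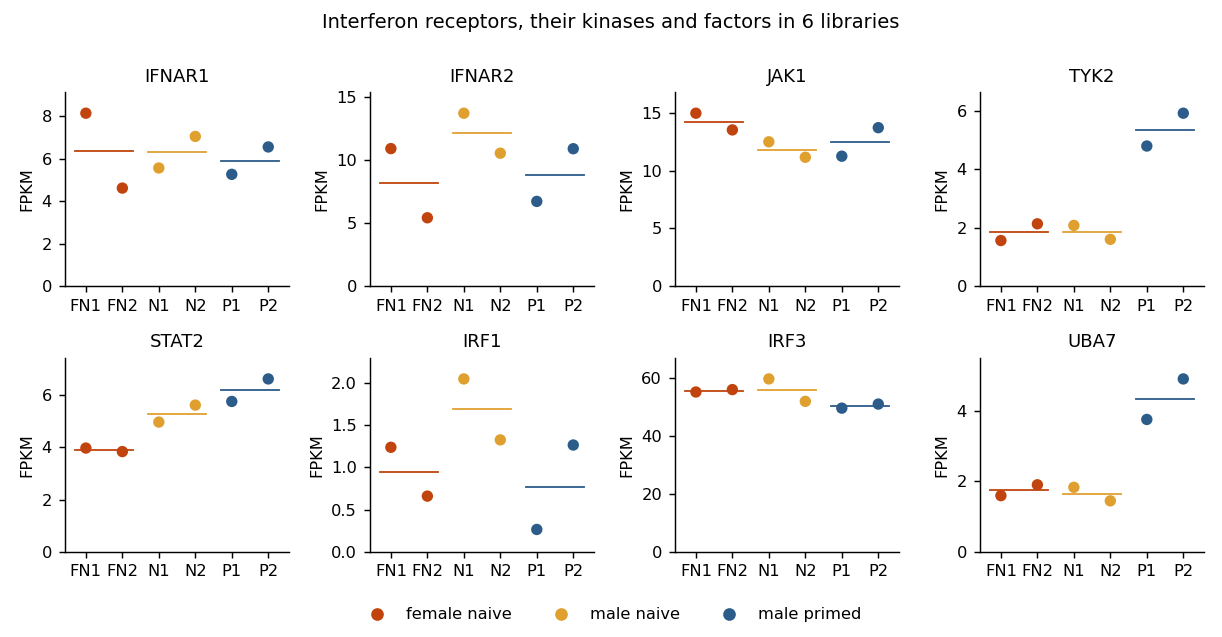
FPKM of IFNAR1, IFNAR2, JAK1, TYK2, STAT2, IRF1, IRF3 and UBA7 in the 6 libraries on linear axes from 0, with a point for each library and a line for each group's mean (FN female naive, N male naive, P male primed). TYK2, STAT2 and UBA7 were below both primed libraries in all 4 naive libraries, while IFNAR1, IFNAR2, JAK1 and IRF1 overlapped between states.

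Interferon regulatory factors and nucleic acid sensors held no called gene. Limma called 0 of 6 tested regulatory factors in naive against primed libraries (0 at an unadjusted p under 0.05) and 0 of 13 tested sensing genes (2 at an unadjusted p under 0.05). Of all tested rows 11.3% were called and 30.9% had an unadjusted p under 0.05. IRF3, the factor that starts interferon transcription, was at 51.8 to 59.6 FPKM in naive libraries and 49.5 and 50.9 FPKM in primed libraries (0.14, SE 0.11). IRF7, which amplifies that response, did not exceed 0.487 FPKM in any library. The RNA sensor IFIH1 did not exceed 0.194 FPKM, and DDX58 (RIG-I) was at 1.03 and 0.96 FPKM in female naive, 0.482 and 0.625 FPKM in male naive and 1.07 and 4.31 FPKM in primed libraries (-0.91, SE 0.40, limma adjusted p = 0.182). P2 was the highest library for both sensors. IRF1, a target of interferon gamma, was at 1.24 and 0.66 FPKM in female naive, 2.05 and 1.33 FPKM in male naive and 0.264 and 1.27 FPKM in primed libraries and was not called (0.42, SE 0.33, limma adjusted p = 0.437).

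Among the other interferon-stimulated genes, 4 of 21 tested members rose and 0 fell in naive against primed libraries, or 19% called against 11.3% of all tested rows. This list was also written with earlier results of these data known, so the excess is a description and no result about the list. The median difference was 0.35 beside 0.035 for all tested rows, and 15 of the 21 differences were above 0. An unadjusted limma p under 0.05 was found for 9 of the 21, beside 30.9% of all tested rows. Of the 50 rows of this list 29 were not tested, and IFI44, IFI44L and RTP4, named after their values were seen, were listed at 0 in every library. USP18, which removes ISG15 from proteins and damps receptor signalling, was at 0.157 and 0.065 FPKM in female naive and 0.367 and 0.436 FPKM in male naive libraries, was listed at 0 in both primed libraries and was not tested.

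IFITM1, which blocks fusion of viral membranes, had the highest level, at 835 and 1547 FPKM in female naive, 621 and 787 FPKM in male naive and 43.1 and 179 FPKM in primed libraries. It rose by 3.32 (SE 0.56, limma adjusted p = 0.0219), and since the IFITM genes are close copies of each other its reads may be shared among them. MOV10, an RNA helicase that restricts retroelements, was at 26.4 and 43.1 FPKM in female naive, 31.2 and 30.9 FPKM in male naive and 10.95 and 13.3 FPKM in primed libraries (1.35, SE 0.21, limma adjusted p = 0.0186). RNF213, a large ubiquitin ligase, was at 7.22 and 8.96 FPKM in female naive, 8.91 and 8.29 FPKM in male naive and 1.1 and 3.52 FPKM in primed libraries (1.60, SE 0.33, limma adjusted p = 0.0337). In each of these 3 genes all naive libraries were above both primed ones, and P1 was the lowest of the 6.

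C19orf66 (SHFL in the table of gene names), an inhibitor of viral frameshifting, was at 14.5 and 31.4 FPKM in female naive, 1.63 and 6.63 FPKM in male naive and 0 and 1.49 FPKM in primed libraries. Its rise of 2.67 (SE 0.59, limma adjusted p = 0.0404) rested on 40.2 and 119.6 effective fragments in FN1 and FN2, 0.7 and 3.7 in N1 and N2 and 0 and 3.1 in P1 and P2. Without N1, N2 or P1 none of these 4 genes was called. Without FN1 or FN2 IFITM1, RNF213 and C19orf66 were not called, and C19orf66 was not called without P2. Calls were also lost without both male naive libraries (IFITM1, MOV10 and RNF213), with no filter or with sex ignored (RNF213 and C19orf66) and with a pseudocount of 0.1 (C19orf66). Over all alternatives the differences ran from 2.31 to 4.34 for IFITM1, 1.18 to 1.52 for MOV10, 1.04 to 2.15 for RNF213 and 2.01 to 4.42 for C19orf66, with limma adjusted p up to 0.0799, 0.0918, 0.106 and 0.178.

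**Figure D3:**
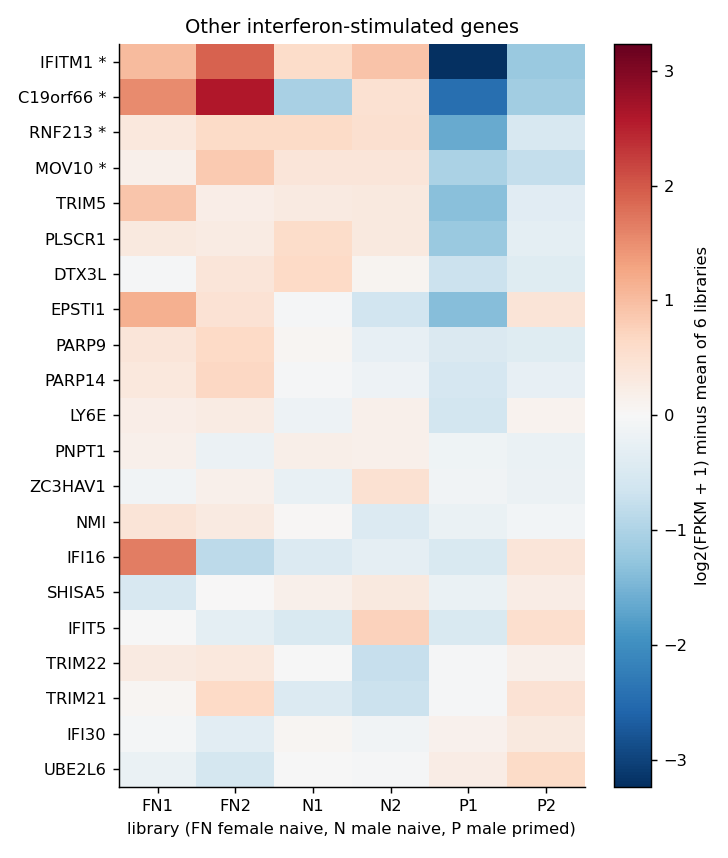
Level of each tested gene of the list of other interferon-stimulated genes in the 6 libraries, as log2(FPKM + 1) minus the gene's mean over the libraries (red above, blue below), ordered by the naive minus primed difference, with a star for the 4 called genes. IFITM1, C19orf66, RNF213 and MOV10 head the order, and for IFITM1, RNF213 and MOV10 P1 is the lowest library.

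Of the genes that attach or remove ISG15, 4 were tested, and limma called 0 higher and 1 lower in naive against primed libraries, with a median difference of -0.51 and 2 at an unadjusted p under 0.05. That is 25% called, beside 11.3% of all tested rows (4.59% lower), and a single gene. An unadjusted p under 0.05 was found for 30.9% of all tested rows. UBA7, the enzyme that activates ISG15, was at 1.59 and 1.9 FPKM in female naive, 1.83 and 1.44 FPKM in male naive and 3.75 and 4.9 FPKM in primed libraries. All naive libraries were below both primed ones, and the difference was -0.98 (SE 0.22, limma adjusted p = 0.0423). The call was lost when any 1 library was left out, with a pseudocount of 0.1, with no filter, without both male naive libraries and with sex ignored, with differences of -1.30 to -0.83 and limma adjusted p up to 0.127 over all alternatives.

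Genes that restrain the response or clear nucleic acids had 2 of 16 tested members higher and 0 lower in naive against primed libraries, or 12.5% called beside 11.3% of all tested rows (6.72% higher), with a median difference of 0.07 beside 0.035. That share is near the one for all tested rows, so it is no result about the list. SAMHD1, which degrades deoxynucleotides and limits viral replication, was at 20.5 and 24.1 FPKM in female naive, 10.4 and 11 FPKM in male naive and 7.21 and 6.74 FPKM in primed libraries. RNASET2, a secreted and lysosomal ribonuclease, was at 38.5 and 42.7 FPKM in female naive, 13.9 and 12.5 FPKM in male naive and 6.42 and 11.3 FPKM in primed libraries. In both genes every naive library was above both primed ones, and SAMHD1 rose by 1.05 (SE 0.15, limma adjusted p = 0.0154) and RNASET2 by 1.34 (SE 0.225, limma adjusted p = 0.0218). The primed lines were male and the naive value averages both sexes. These rises therefore hold part of the female minus male difference among naive lines, 0.99 for SAMHD1 and 1.55 for RNASET2. Without N1, N2, FN2 or P1, or with sex ignored, neither was called, and RNASET2 was not called without FN1. Over all alternatives the differences were 0.955 to 1.54 for SAMHD1 and 0.977 to 2.12 for RNASET2, with limma adjusted p up to 0.156 and 0.215. SOCS1, a feedback inhibitor of the JAK kinases, was not called, at 1.43 and 2.48 FPKM in female naive, 2.22 and 0 FPKM in male naive and 0.523 and 0.667 FPKM in primed libraries.

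SAMHD1 and RNASET2 were also the only 2 of 76 tested genes of all 8 lists called in female against male naive lines, or 2.63% against 3.31% of all tested rows. SAMHD1 was higher by 0.99 (SE 0.17, limma adjusted p = 0.0401) and RNASET2 by 1.55 (SE 0.26, limma adjusted p = 0.0375), and in both the female naive libraries were above the other 4, as for BST2. Both calls were lost without FN1, FN2, N1 or N2, and that of SAMHD1 also without P1. Over all alternatives the differences were 0.88 to 1.13 for SAMHD1 and 1.48 to 1.70 for RNASET2, with limma adjusted p up to 0.231 and 0.223. With no filter on low values neither was called, and the same held with the replicate block. In the same comparison cell type markers were also called: 4 of 8 pluripotent cell markers were higher and 0 lower in female lines (NANOG, DPPA4, TDGF1 and PRDM14), 3 of 8 tested neural markers were lower and 0 higher (MAP2, TUBB3 and CRABP1), and 1 of 14 tested fibroblast and feeder markers was lower and 0 higher (ACTA2). ACTA2 was at 28.4 and 16.2 FPKM in female and 82.2 and 89.1 FPKM in male naive lines, and MAP2 at 5.6 and 3.19 FPKM in female and 20.9 and 20.9 FPKM in male naive lines. These markers, other than NANOG, were named after their values were seen, and their part in the differences of BST2, SAMHD1 and RNASET2 was not tested.

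Over the 8 lists together, 7 of 76 tested genes rose and 2 fell in naive against primed libraries, or 11.8% called beside 11.3% of all tested rows. The count of 9 was 0 without N1, 0 without N2, 0 without P1, 2 without FN1, 1 without FN2 and 9 without P2, and 4 without both male naive libraries. A share this close to that of all tested rows is no result about the pathway as a whole.

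**Figure D4:**
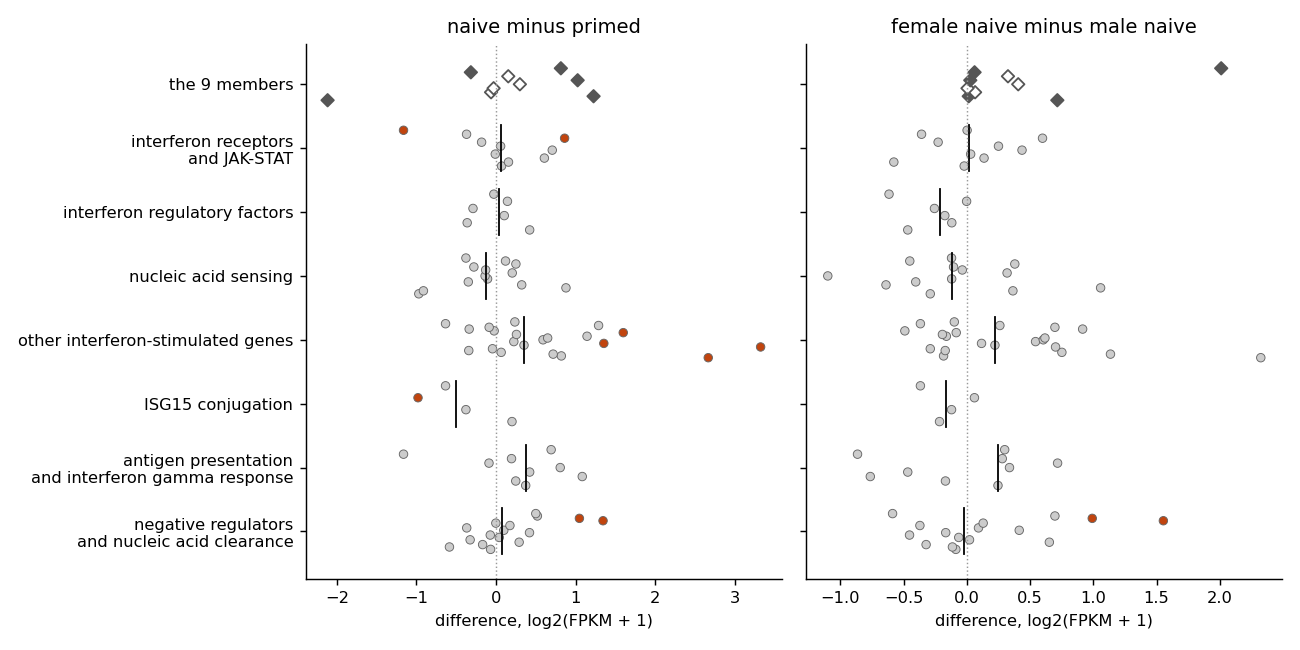
Differences on the log2(FPKM + 1) scale, naive minus primed at left and female naive minus male naive at right, for the 9 members (diamonds, filled where the row was tested and open where not) and for the tested genes of 7 pathway lists (circles, orange where limma's adjusted p was under 0.05), with a black line at each list's median and no tested interferon gene to show. The members run from -2.12 for 6-16 to 1.23 for ISG15 at left, and at right BST2 is at 2.01, with C19orf66 (2.32, not called) further right.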

How the data were processed

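In each of 6 libraries the authors deposited an FPKM value, its bounds and a status flag for 30246 rows, per the file headers. Per the submitters' processing notes, TopHat 1.3.0 did the alignment. Sources used here do not name the genome build, annotation, quantifier version or any scaling between libraries, and coordinates follow the files. The files name 22292 rows, and 728 more were named from a table of gene names.

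The bounds lie 2 SD from FPKM, so the effective fragments of a row are the square of its FPKM divided by 1 SD. They cover counting error only. The 13685 rows that reached 1 FPKM in 2 or more libraries, with status OK throughout, were fitted with limma 3.58.1 in R 4.3.3 on log2(FPKM + 1), a scale that understates the change of low genes. The fit had a mean for each of 3 groups and a variance trend, with Benjamini-Hochberg adjustment over all tested rows, two-sided. The naive value is the mean of the female and male naive means. As the primed lines were male, a naive minus primed difference also holds part of any difference between female and male naive lines. The fit was tested on simulated data.

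Groups and numbers came from the sample titles. The members and lists were chosen with earlier results of these data known. Genes named are the 9 members, a fixed set of pathway genes, up to 4 called genes with the smallest p of each list, and the 10 most like the members' pattern. A called gene of the lists is not reported here, though it is in the counts over all lists. No set test was run. No 2 libraries held identical values. No sequence is printed. Alternatives were another pseudocount, no filter, 3 scalings, each library left out, both male naive libraries left out, a replicate block and sex ignored. No member had a second row to sum.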

Additional observations from a re-analysis of the deposited data

Results flagged for a closer look

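Among 41 named genes that varied over the 4 naive libraries, 2 had a library far from the other 3 by Dixon's ratio, the gap to the nearest library over the whole range, for which chance flags about 1 in 20 groups. IFIT1 had a ratio of 1, with 0.094 FPKM in FN1 and a listing at 0 in FN2, N1 and N2, and FN1 rested on 2 effective fragments. IFIH1 had a ratio of 0.882, with 0.161 FPKM in FN1 against 0 to 0.019 FPKM in the other naive libraries.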

How the results depend on the processing

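The count of all genes called in naive against primed libraries (1548) was 941 with no filter, 625 without both male naive libraries, 812 with the replicate block and 250 with sex ignored, and 177 to 1081 with 1 library left out. Pathway genes called (9) numbered 5 with no filter, 4 without both male naive libraries and 2 with sex ignored, and 0 to 9 with 1 library left out. In female against male naive lines the count of all genes (453) was 268 with no filter, 207 with the replicate block and 41 to 523 with 1 library left out. Pathway genes (2) numbered 0 with no filter, 1 with the block and 0 to 2 with 1 library left out, and called members (1) numbered 0 with no filter, 0 with the block and 0 to 1 with 1 library left out. Leaving out 1 library also leaves fewer residual degrees of freedom and assumes that a lone library varies like the other groups. The median difference of the 9 members between naive and primed libraries (0.15) was 0.417 with a pseudocount of 0.1, 0.315 without both male naive libraries and 0.053 to 0.252 with 1 library left out. In the main setting it is the value of OAS1, a member near the limit of detection. Deviations of same-numbered libraries were not positively correlated across genes. The r was -0.06 for female and male naive, -0.05 for male naive and primed and -0.263 for female naive and primed libraries. These values gave no sign of pairing by number, but they cannot show how the lines were handled. Of 974 alternative values for single genes 870 kept their side of the threshold or moved by less than the spread, 91 lost the call, 2 gained it and 11 moved. In 64 of them, over 22 results, the difference took the other sign, each for a gene not called or not tested under either setting. Without FN1 the female minus male difference was -0.412 for ISG15 and -0.343 for MX1, and the naive minus primed difference of IFIT2 was 0.07 with quantile normalization and 0.16 without P2. The replicate block also ended the female against male calls of BST2 (adjusted p = 0.0565, limma), SAMHD1 and RNASET2 and the naive against primed calls of TYK2 and UBA7. The 1 pathway gene called in female against male naive lines with the block was thus neither SAMHD1 nor RNASET2. POU5F1 and NANOG kept their naive against primed calls under all 14 alternatives (NANOG 4.39, range 4.05 to 5.12). Depth in the male naive libraries limits what can be said of 6-16, OAS1 and the IFIT genes there.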

Other observations

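Genes of antigen presentation, many of them targets of interferon gamma, were examined beside the members. Limma called 0 of 9 tested genes in naive against primed libraries (3 at an unadjusted p under 0.05), with a median difference of 0.37, 7 differences above 0 and 2 below. Of all tested rows 11.3% were called and 30.9% had an unadjusted p under 0.05, with a median of 0.035. In female against male naive lines limma also called 0 of 9 (1 at an unadjusted p under 0.05), with a median of 0.25. There 3.31% of all tested rows were called and 21.7% had an unadjusted p under 0.05, with a median of -0.104. B2M, the light chain of class I molecules and named after its values were seen, was at 468 and 591 FPKM in female naive, 435 and 452 FPKM in male naive and 317 and 439 FPKM in primed libraries. TAP1, the peptide transporter, also named after its values were seen, was at 1.1 and 1.95 FPKM in female naive, 3.5 and 3.55 FPKM in male naive and 9.32 and 4.47 FPKM in primed libraries, and was not called (limma adjusted p = 0.0651).

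The mean of the members' standardised levels was 0.49 and 0.372 in FN1 and FN2, -0.059 and -0.588 in N1 and N2 and -0.387 and 0.171 in P1 and P2, so the naive and primed libraries overlapped in it. Among 9562 rows with a symbol whose mean reached 5 FPKM in any group, the 10 most like this pattern had Pearson's r of 0.964 to 0.991 over the 6 libraries, which differ in depth. In falling order they were COPS6, COL9A3, TMEM54, TCEAL4, PSMD8, PLA2G16, JAK1, STK17B, BORCS7 and STX5. The pattern averages members that differ. Over the 6 libraries Pearson's r was -0.99 between ISG15 and the IRF9 row, -0.74 between 6-16 and MX1 and 0.87 between ISG15 and MX1. IFIT1, on 5 effective fragments in all, had the same weight as MX1. The 10 genes are the top of a ranking of 9562 rows over 6 libraries, and shared regulation was not tested. IFI16, a DNA-binding interferon target named after its values were seen, was at 8.52 and 0.675 FPKM in FN1 and FN2, 1.25 and 1.5 FPKM in N1 and N2 and 1.16 and 3.01 FPKM in P1 and P2.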
